A study of Mus musculus with 10 samples.

Results

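CpG-dense stretches of DNA at the ends of genes that carry almost no methylation in mouse testis were examined in DNA of F2 mice, in 5 control and 5 arsenic libraries. The autosomes were divided into 1000 bp tiles. A tile was taken if it held at least 20 distinct measured CpGs, overlapped the 1000 bp on either side of an end of a protein-coding gene, and had a methylation level under 10% when the reads of the 5 control libraries were pooled. This gave 6304 tiles out of 6663 CpG-dense gene-end tiles, 10163 autosomal CpG-dense tiles, and 241398 tiles with any measured CpG. The 6304 tiles held 204256 CpGs, measured as 295684 cytosines on the 2 strands, or 14.9% of all cytosines measured. They lay at the ends of 6264 genes, 30.3% of the 20665 autosomal protein-coding genes in the gene table, with 178 to 536 tiles per chromosome. The tiles were thus chosen by their control levels, which are given as a description.

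The assay was reduced representation bisulfite sequencing, in which a restriction enzyme enriches CpG-rich fragments and bisulfite turns unmethylated cytosines into thymines on sequencing. Both groups were testis DNA from mice of the F2 generation, one labelled control and the other arsenic; the labels give no strain, age or dose and do not say which ancestor received arsenic. Whole testis was used, so each level averages over germ cells and somatic cells. The question set by the study is how the methylome of the arsenic group compares with that of the controls.

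CpG islands are stretches rich in CpG dinucleotides that cover the start of many vertebrate genes, above all housekeeping and developmental genes, and that stay free of methylation in most cells. Proteins with a CXXC domain, such as Cxxc1, Kdm2b and Kmt2b, bind unmethylated CpGs and bring histone-modifying complexes to these starts, and Polycomb complexes hold many developmental islands silent without DNA methylation. In the male germ line, methylation is erased in primordial germ cells and laid down again before birth, and most islands escape the new methylation.

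Promoters of 6 genes whose tiles are described further on are printed here to show what such a stretch looks like and where its measured CpGs lie. Each is 300 bases, from 250 before to 50 after the RefSeq start site (build GRCm38.p6), written 5′ to 3′ on the gene's own strand, with capitals marking the CpGs that were measured in all 10 libraries and lie inside the tile. Pik3c2a (chr7:116443409-116443708, minus strand) and Kdm3a (chr6:71632637-71632936, minus strand) belong to tiles lower in the arsenic libraries. Gsn (chr2:35256109-35256408, plus strand) and Snx3 (chr10:42501804-42502103, plus strand) belong to tiles higher in them. Tor1aip2 (chr1:156035414-156035713, plus strand) is among the least methylated, and Smarca4 (chr9:21615919-21616218, plus strand) lies in a tile where 1 library stood far above the others.
Pik3c2a: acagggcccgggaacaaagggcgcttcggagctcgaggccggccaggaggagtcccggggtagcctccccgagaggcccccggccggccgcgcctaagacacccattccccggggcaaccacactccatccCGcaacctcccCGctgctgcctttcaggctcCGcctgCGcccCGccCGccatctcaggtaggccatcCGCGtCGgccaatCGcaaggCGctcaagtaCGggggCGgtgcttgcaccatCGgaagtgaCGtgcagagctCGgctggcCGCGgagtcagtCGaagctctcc
Kdm3a: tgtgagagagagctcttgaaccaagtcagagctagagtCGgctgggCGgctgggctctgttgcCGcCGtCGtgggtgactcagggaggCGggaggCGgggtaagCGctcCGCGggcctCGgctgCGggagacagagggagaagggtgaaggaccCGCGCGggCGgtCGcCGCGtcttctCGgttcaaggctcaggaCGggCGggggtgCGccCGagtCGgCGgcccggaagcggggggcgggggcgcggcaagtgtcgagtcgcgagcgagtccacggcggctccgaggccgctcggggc
Gsn: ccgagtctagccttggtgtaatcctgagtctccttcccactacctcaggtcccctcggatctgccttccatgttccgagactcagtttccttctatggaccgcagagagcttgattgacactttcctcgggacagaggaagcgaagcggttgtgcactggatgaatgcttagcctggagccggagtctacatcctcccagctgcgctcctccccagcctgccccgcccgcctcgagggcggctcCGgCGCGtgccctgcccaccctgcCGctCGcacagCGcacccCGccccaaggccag
Snx3: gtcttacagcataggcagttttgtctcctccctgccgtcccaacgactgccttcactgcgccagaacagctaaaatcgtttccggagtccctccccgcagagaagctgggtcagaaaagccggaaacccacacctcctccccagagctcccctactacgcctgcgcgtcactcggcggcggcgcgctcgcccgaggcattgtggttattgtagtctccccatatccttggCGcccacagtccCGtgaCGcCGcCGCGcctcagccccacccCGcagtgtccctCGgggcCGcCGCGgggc
Tor1aip2: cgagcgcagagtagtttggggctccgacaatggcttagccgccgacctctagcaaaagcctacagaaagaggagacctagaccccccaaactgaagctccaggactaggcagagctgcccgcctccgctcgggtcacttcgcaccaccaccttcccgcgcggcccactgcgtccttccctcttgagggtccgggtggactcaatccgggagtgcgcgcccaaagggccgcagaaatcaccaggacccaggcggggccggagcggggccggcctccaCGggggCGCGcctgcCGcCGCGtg
Smarca4: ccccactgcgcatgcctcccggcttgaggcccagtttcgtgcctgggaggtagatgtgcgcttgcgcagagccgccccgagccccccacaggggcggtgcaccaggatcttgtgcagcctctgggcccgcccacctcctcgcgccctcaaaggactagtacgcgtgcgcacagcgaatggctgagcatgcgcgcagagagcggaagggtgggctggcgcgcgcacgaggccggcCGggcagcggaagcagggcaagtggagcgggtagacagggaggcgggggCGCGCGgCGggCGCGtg

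In the Pik3c2a promoter, 19 of 31 CpGs were measured, and their mean level in the control libraries was 10.8%, 8.88%, 6.85%, 11.1% and 13.0%. The arsenic libraries stood at 0.299%, 0.260%, 0.679%, 0.212% and 2.56% over the same CpGs. Every control library was above every arsenic library, at 10.1% ± 2.34 (SD, n = 5) against 0.801% ± 0.998. Over the 26 of 40 CpGs measured in the Kdm3a promoter, control library 1 stood at 0.319%, beside the arsenic libraries, and the other control libraries between 5.86% and 10.5%. The 11 measured CpGs of the Snx3 promoter were between 0% and 0.721% in the control libraries and at 3.70%, 0%, 3.75%, 11.7% and 21.0% in the arsenic libraries, so that arsenic libraries 4 and 5 were high and library 2 was at 0. Over the 7 of 20 CpGs measured in the Gsn promoter, the control libraries were at 0.493%, 1.02%, 0.487%, 0.619% and 0.583% and the arsenic libraries at 0.380%, 3.94%, 0%, 4.16% and 2.43%. Arsenic libraries 1 and 3 were thus below every control library, although over the whole tile every arsenic library was above them. In the Tor1aip2 promoter, 6 of 28 CpGs were measured, and a methylated read was seen in control library 3 alone. Over the 7 measured CpGs of the Smarca4 promoter, arsenic library 3 stood at 34.3% and the other libraries between 2.61% and 8.99%.

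Depth and germ cell content frame these levels. Median reads per cytosine in the 6304 tiles ranged from 24 to 32 in the control and from 31 to 38 in the arsenic libraries, and control libraries 4, 2 and 5 were the shallowest. Control libraries 4 and 5 stood apart from the other 8 libraries in the level of these tiles, as described below, and counts of tiles by direction are given with and without them. Promoters known to be unmethylated in male germ cells and methylated in somatic tissue (Dazl, Ddx4, Sycp1 and others, 12 of 14 measured) had mean control levels of 13.4% to 29.2%, and none of them lay in the 6304 tiles. Upstream of H19, where the paternal copy is methylated, the level over 3 CpGs was 95.2% ± 2.85 (SD, n = 5) in the control and 95.6% ± 2.17 in the arsenic libraries. The part of cell composition in the differences below was not tested.

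Most of these tiles lay far below the 10% limit. The median control level was 2.34%, and 5th and 95th percentiles were 0.718% and 6.47%. Of the 6304 tiles, 701 were under 1% in the pooled controls and 691 were at 5% or more. In the pooled arsenic libraries the median was 2.05%, with 5th and 95th percentiles of 0.728% and 5.54%. The arsenic libraries were not used to choose the tiles: 19 of the 6304 tiles were at 10% or more in them, up to 14.5%, and 63 of the 359 CpG-dense gene-end tiles at 10% or more in the controls were under 10%. No tile was without a methylated read in every library, 252 were under 2% in all 10 libraries, 2195 under 5% and 4964 under 10%.

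**Figure D1:**
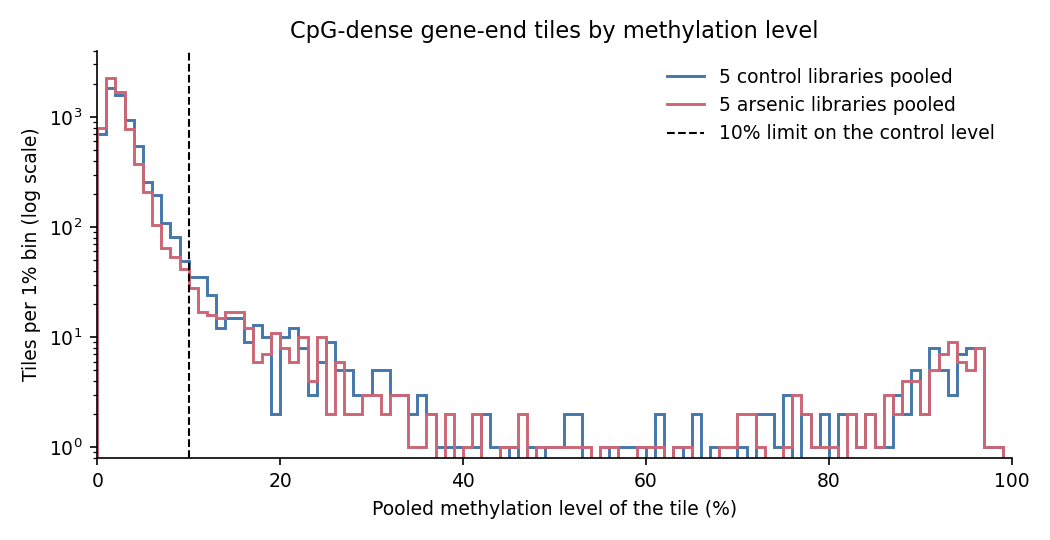
Number of CpG-dense gene-end tiles (log scale) in each 1% bin of the pooled methylation level, for the 5 control libraries (blue) and the 5 arsenic libraries (red) pooled by group; the dashed line is the 10% limit that was set on the control level. Nearly all tiles lie under the limit, with medians of 2.34% and 2.05% among the 6304 chosen tiles, and a small second group lies near 90%.

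Most cytosines in the tiles had no methylated read at all. The share of cytosines at 0 was 70.6% to 76.9% across the libraries, while 1.96% to 6.44% of cytosines were at 20% or more, with control libraries 4 (4.54%) and 5 (6.44%) the highest. The cytosines on the plus and minus strands, which come from different molecules, had mean levels within 0.211 percentage points of each other in every library. Neighbouring CpGs often had equal counts. Among 223112 pairs of CpGs up to 20 bp apart on 1 strand, 38.1% to 47.7% had exactly equal coverage, and among those with a methylated read 38.1% to 54.8% also had the same number of methylated reads, the highest shares being those of control libraries 4 (51.3%) and 5 (54.8%). Neighbouring CpGs can lie on the same read, so the reads summed over a tile are not independent of each other.

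The 10% limit cuts through a thin tail of the distribution. Just inside it lay Gpx1, a glutathione peroxidase, at 9.96% in the pooled controls, the 3′ end of Zfp423, a zinc finger transcription factor, at 9.93%, Ccdc85b at 9.91%, the calcium pump gene Atp2a2 at 9.91% and Eid2b at 9.89%. In the pooled arsenic libraries the same tiles were at 2.83%, 10.3%, 1.38%, 5.01% and 6.67%. Just outside it, at 10% in the controls, lay C1ql3, the keratin gene Krt86, the mitochondrial phosphodiesterase gene Pde12, the thrombopoietin gene Thpo and Ccdc107, which were at 10.4%, 10.6%, 6.39%, 6.12% and 2.08% in the pooled arsenic libraries. Single libraries near the limit varied widely: the Atp2a2 tile was at 1.13%, 13.99%, 0.519%, 14.4% and 21.7% in the control libraries. Tiles next to the limit on either side thus had a similar range of levels in the arsenic libraries.

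The tiles sat mainly over gene starts. Starts were told from 3′ ends by the strand in the RefSeq promoter table: 4896 tiles (77.7%) reached within 1000 bp of a start, 133 (2.11%) within 1000 bp of a 3′ end alone, and 1275 (20.2%) had no strand in the table. The 133 tiles at 3′ ends were the more methylated, with a mean of 4.44% ± 0.985 (SD, n = 5 libraries) against 2.76% ± 0.698 for the start tiles in the controls. In the arsenic libraries the means were 3.88% ± 0.256 and 2.39% ± 0.153, and the 3′-end tiles were the higher in 10 of 10 libraries. Among the 359 CpG-dense gene-end tiles at 10% or more, 3′ ends made up 34.5%. A start site lay inside 3464 of the tiles, and in 269 tiles 2 genes started in opposite directions. The median level of those 269 tiles was 2.31% in the control and 1.82% in the arsenic libraries, beside 2.27% and 1.99% in the other tiles with a start inside.

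Within the tiles the level was lowest just downstream of the start site and climbed with distance on both sides. Over the 213355 cytosines within 1000 bp of a start, the arsenic libraries averaged 2.17% ± 0.215 (SD, n = 5) in the first 200 bp of the gene, 3.47% ± 0.371 at 800 to 1000 bp before the start and 3.38% ± 0.228 at 800 to 1000 bp after it. The control libraries averaged 2.53% ± 0.727, 3.997% ± 0.604 and 3.97% ± 0.694 at the same places. The level at 800 to 1000 bp after the start was above that in the 200 bp before the start in 10 of 10 libraries.

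**Figure D2:**
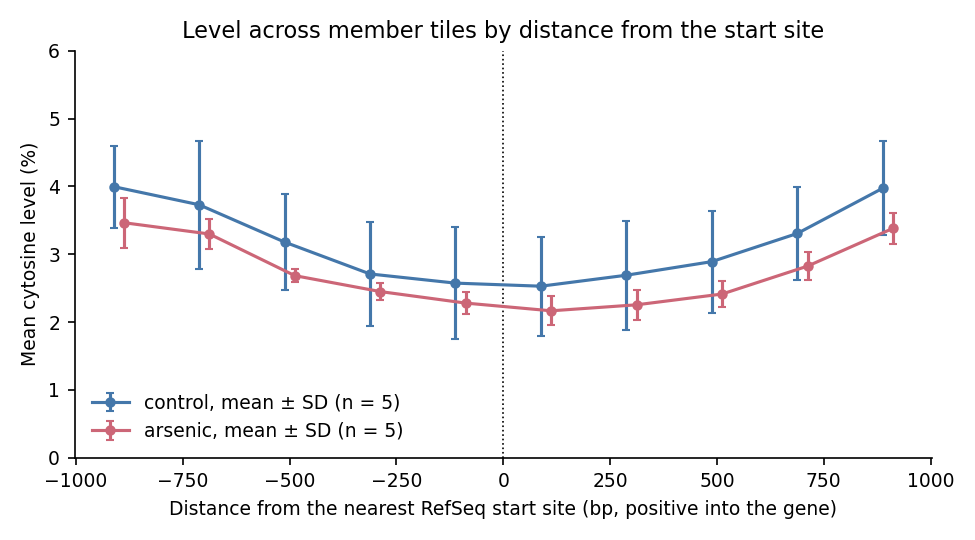
Mean cytosine level (%) in 200 bp bins by distance from the nearest RefSeq start site (bp, positive into the gene), for cytosines inside the tiles; points are means of 5 libraries per group and bars are SD. Both groups are lowest in the first 200 bp of the gene (2.53% in the controls and 2.17% in the arsenic libraries) and highest at the edges.

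Outside the tiles the level climbed steeply. Adjoining tiles that were not themselves among the 6304 (4464 measured) averaged 13.0% ± 0.609 (SD, n = 5) in the control and 12.6% ± 0.191 in the arsenic libraries. Tiles a step further out (2118) averaged 46.6% ± 0.483 and 46.2% ± 0.164, and those at 3 tiles' distance (1777) 62.5% ± 0.591 and 62.4% ± 0.176. At each of these distances, the adjoining tiles included, the control and arsenic means differed by less than the SD of the control libraries. Within the 6304 tiles the median arsenic level was 2.12% in the 1818 tiles with 20 to 24 CpGs and 1.95% in the 179 tiles with 60 or more.

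The promoters in these tiles were rich in CpGs, as the choice of CpG-dense tiles sets, and their sequence is given as a description. For 4106 RefSeq promoters (300 bases each, GRCm38.p6) whose start lay in a tile, the median number of CpGs was 26 and the median GC content 65.3%, against 14 and 57% over all 20085 autosomal protein-coding promoters in the table. Searched on both strands, the GC box recognised by the SP1 family (GGGCGG) was found in 75.5% of them against 47% of all promoters, the ETS core (CCGGAAG) in 21.1% against 11.9%, and the E-box CACGTG in 10.7% against 7.89%. The cyclic AMP response element (TGACGTCA) was found in 3.48% against 2.3%. The CCAAT box (CCAAT), which holds no CpG, was about as frequent, at 37.5% against 38.1%, and a TATA box (TATAAA) was rarer, at 5.09% against 12.7%. The letters CCGG, which overlap the ETS core and are the site of MspI, the enzyme most often used in this assay, were found in 96.3% against 63.5%. These are matches of letters in a window and say nothing of binding.

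Averaged over the 6304 tiles, the level was 2.41%, 2.31%, 2.26%, 3.20% and 3.87% in control libraries 1 to 5 and 2.32%, 2.47%, 2.40%, 2.29% and 2.66% in arsenic libraries 1 to 5. Control libraries 4 and 5 were above all 8 other libraries, control libraries 1 and 2 lay among the arsenic libraries, and control library 3 was the lowest of the 10. The group means were 2.81% ± 0.705 (SD, n = 5) and 2.43% ± 0.147, a difference of -0.378 percentage points (arsenic minus control), smaller than the SD of the controls. Without control libraries 4 and 5 the control mean was 2.32% and the difference turned to 0.105 points. Tiles at 10% or more in a library numbered 117, 120, 106, 346 and 545 in control libraries 1 to 5 and 113, 122, 122, 103 and 202 in arsenic libraries 1 to 5, so that control libraries 4 and 5 had the most. Tiles at 10% or more in 1 library while the other 9 were all under 5% numbered 51 and 87 in control libraries 4 and 5, and 10 to 21 in each of the others. Median depth in these tiles was 26 reads per cytosine in control libraries 2 and 5 and 24 in control library 4. These libraries had 120, 545 and 346 tiles at 10% or more, in that order. The part of depth in these counts was not tested.

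**Figure D3:**
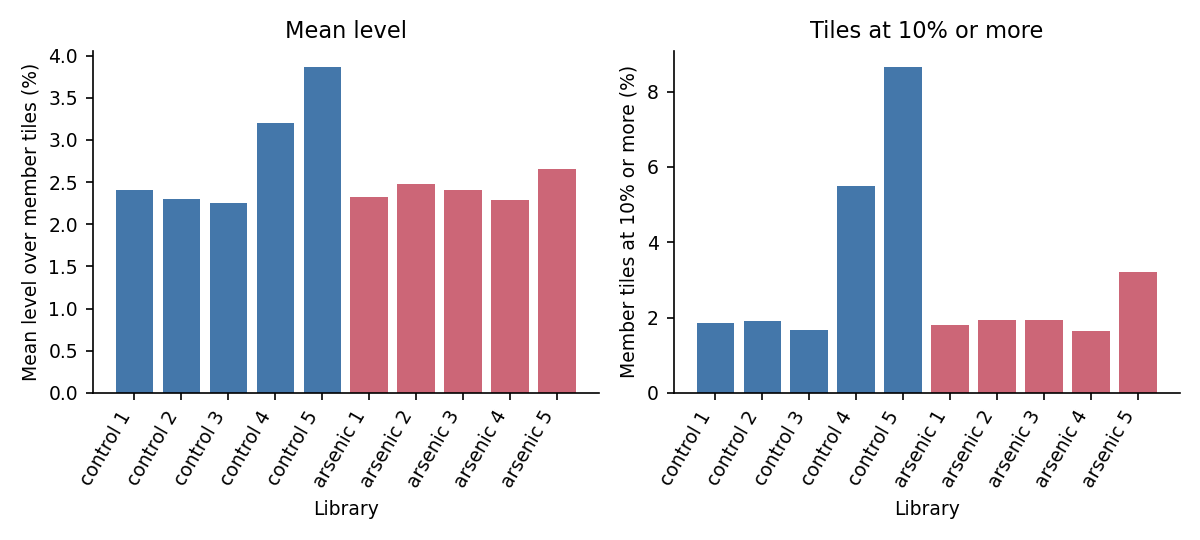
Left, mean methylation level (%) over the 6304 tiles in each library; right, share of the tiles (%) at 10% or more in each library. Control libraries 4 (3.20% and 5.49%) and 5 (3.87% and 8.65%) stand above the other 8 libraries, and arsenic library 5 (2.66% and 3.20%) is the highest of its group.

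The arsenic and control libraries were compared tile by tile with a quasi-binomial model fitted to all 165978 tiles with at least 3 measured CpGs. With Benjamini-Hochberg adjustment over all of them, 0 of the 6304 tiles passed an adjusted p of 0.05 (0% of all tiles tested), and the lowest adjusted p was 0.474. At an unadjusted p under 0.05 there were 740 tiles (11.7%, beside 5.80% of all tiles tested), of which 504 were lower in the arsenic libraries (7.99%, beside 3.34%) and 236 higher (3.74%, beside 2.46%). Nothing is read from these shares, since the control levels on one side of the comparison chose the tiles. The limma version of the test gave 0 tiles among the 6304 at an adjusted p under 0.05. At an unadjusted p under 0.05 it gave 284 lower and 172 higher among the 6304, beside 8529 of the 165978 tiles tested in either direction. CpG-dense tiles away from gene ends had 388 of 3500 (11.1%) at an unadjusted p under 0.05. Choosing the tiles by the pooled arsenic level in place of the control level gave 6348 tiles, 6285 of them the same. In the quasi-binomial model, 532 of the 6348 were lower and 230 higher at an unadjusted p under 0.05. Over all 165978 tiles tested those counts were 5545 and 4086. With nearly all tiles shared, these counts cannot show the effect of choosing by the control levels. Without control libraries 4 and 5, the counts at an unadjusted p under 0.05 were 422 lower and 353 higher, beside 9460 of all 165978 tiles in either direction.

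Small differences were the rule. The pooled level differed by under 1 percentage point in 3659 of the 6304 tiles, was lower by 5 points or more in the arsenic libraries in 61 and higher by as much in 31. The median difference was -0.243 points, beside -0.0963 over all tiles tested. The arsenic level was the lower in 3678 tiles (58.3%, beside 51.9% of all tiles tested) and the higher in 2626; without control libraries 4 and 5 it was the lower in 2807 and the higher in 3497. In 54 tiles (0.857%, beside 0.832% of all tiles tested) the libraries of the groups did not overlap, with the arsenic libraries lower in 35 (0.555%, beside 0.483%) and higher in 19 (0.301%, beside 0.349%).

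The tiles with the smallest p lower in the arsenic libraries were led by Pik3c2a, which encodes a class II phosphoinositide 3-kinase. Its tile (chr7:116443001-116444000, 45 CpGs) has the start site 35 bp from its centre, and its levels were 7.27%, 7.10%, 5.45%, 8.19% and 8.97% in control libraries 1 to 5 and 0.464%, 0.289%, 1.67%, 0.364% and 2.50% in arsenic libraries 1 to 5. The groups did not overlap, at 7.40% ± 1.32 (SD, n = 5) against 1.06% ± 0.986, with an adjusted p of 0.474 (quasi-binomial model, Benjamini-Hochberg), so the difference did not pass. Median reads per cytosine in the tile were 18 to 40. Nexn, which encodes the actin-binding protein nexilin, was at 4.59%, 1.65%, 5.53%, 4.73% and 7.72% in the control and 0.841%, 0.962%, 0.267%, 1.15% and 0.757% in the arsenic libraries (chr3:152265001-152266000). Every control library was again the higher, although control library 2 came close to the arsenic libraries.

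In the tile at Kdm3a (chr6:71632001-71633000), the gene of a histone H3 lysine 9 demethylase needed for sperm formation, control library 1 read as low as the arsenic group. The values were 0.300%, 6.95%, 5.95%, 6.58% and 10.6% against 0.211%, 0.147%, 0.551%, 0.588% and 0.847%. Rnft1, an E3 ubiquitin ligase gene (chr11:86484001-86485000), had the same form with another library: control library 2 was at 0.450%, the other control libraries between 5.13% and 7.68%, and the arsenic libraries at 0.306% to 1.12%. With all libraries the adjusted p of Rnft1 was 0.474 (quasi-binomial model, Benjamini-Hochberg). When each of the 10 libraries was left out in turn, it was 0.0175 without control library 2, and no other tile passed in any of these fits. In the same model under the other settings tried, the adjusted p of Rnft1 was 0.204 to 0.892.

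At Erlin1, which encodes a protein of lipid-rich domains of the endoplasmic reticulum, the control libraries were at 3.43%, 5.93%, 3.54%, 4.40% and 7.18% and the arsenic libraries at 0.984%, 0.948%, 1.70%, 0.497% and 1.51% (chr19:44069001-44070000), with no overlap. Rpl22l1, a paralog of a ribosomal protein gene, had its start 8 bp from the tile centre (chr3:28805001-28806000) and ranged from 1.65% to 8.33% in the control and 0.211% to 1.63% in the arsenic libraries. Hoxc11, a homeobox gene whose tile lay within 1000 bp of both its ends (chr15:102955001-102956000), ranged over 4.60% to 14.4% and 0.231% to 1.67%. Hcn2, a pacemaker channel gene (chr10:79717001-79718000), ranged over 2.07% to 9.32% and 0.281% to 1.20%. In these 4 tiles the groups did not overlap, and the adjusted p was 0.474, 0.575, 0.612 and 0.632 in the order named.

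Higher in the arsenic libraries, the smallest p was that of Grem1, which encodes a secreted antagonist of bone morphogenetic proteins. Its tile (chr2:113757001-113758000) has 20 CpGs and lies 1148 bp from the start by its centre; its levels were 0.892%, 1.12%, 1.43%, 0.518% and 0.743% in control libraries 1 to 5 and 4.06%, 4.72%, 4.47%, 6.16% and 1.53% in arsenic libraries 1 to 5. The groups did not overlap, with arsenic library 5 just above control library 3. The adjusted p was 0.633 (quasi-binomial model, Benjamini-Hochberg), and at the single cytosine of the tile with the highest minimum coverage the difference was -0.00488 points in place of 3.27.

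Cdc42bpg, a kinase that acts downstream of Cdc42 (chr19:6306001-6307000), was under 1% in every control library and spread widely among the arsenic libraries, at 6.09%, 1.59%, 7.79%, 3.79% and 11.6%. Gsn, which encodes the actin-severing protein gelsolin (chr2:35256001-35257000), ranged over 0.303% to 0.986% in the control and 1.21% to 4.17% in the arsenic libraries. Xrn2, a nuclear exoribonuclease gene (chr2:147013001-147014000), ranged over 0.308% to 1.79% and 2.10% to 3.43%. For Snx3, a sorting nexin gene of the endosome (chr10:42502001-42503000, 66 CpGs), the ranges were 0.423% to 2.01% and 2.05% to 7.32%, and for Shroom1, a cytoskeletal gene (chr11:53457001-53458000), 0.2201% to 1.37% and 1.80% to 3.15%. None of these 5 tiles overlapped between the groups, and their adjusted p was 0.700 to 0.770. The tile shared by the starts of Ap5m1, an adaptor complex subunit gene, and Exoc5, an exocyst subunit gene (chr14:49066001-49067000), was at 0%, 0%, 0%, 0.319% and 0.687% against 0.539%, 7.42%, 0.371%, 6.69% and 9.85%. There arsenic libraries 1 and 3 lay among the controls and the remaining arsenic libraries well above them.

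**Figure D4:**
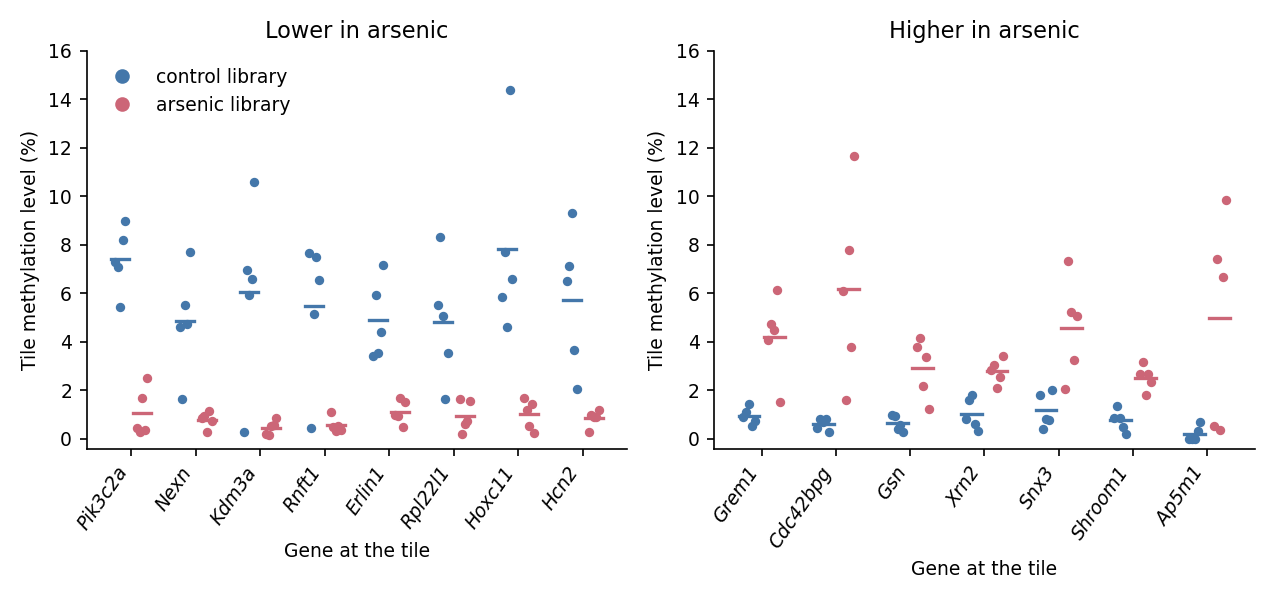
Methylation level (%) of the tiles with the smallest p, by library, 8 lower in arsenic (left) and 7 higher in arsenic (right); dots are libraries (blue control, red arsenic) and bars are group means of 5. Pik3c2a stands at 5.45% to 8.97% in the controls and 0.289% to 2.50% in the arsenic libraries, and none of the 15 tiles passed the adjusted threshold.

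In the 6 tiles that varied most within the arsenic group, the highest arsenic library was at 27.1% to 31.6%. Papss2, which encodes a synthase of the sulfate donor PAPS (chr19:32596001-32597000), was at 2.13%, 31.6%, 2.16%, 1.46% and 12.9% in the arsenic and 1.06%, 7.47%, 0.617%, 1.91% and 4.86% in the control libraries. Smarca4, the gene of the BRG1 ATPase of SWI/SNF chromatin remodelling complexes (chr9:21616001-21617000), was at 1.13%, 1.20%, 29.9%, 2.30% and 1.77% and 2.47%, 1.74%, 8.20%, 1.29% and 1.15%. The tile shared by the starts of 2810004N23Rik and Gnpat, a gene of ether lipid synthesis (chr8:124862001-124863000), was at 0.676%, 0.701%, 27.1%, 0% and 0% and 0%, 0.334%, 8.85%, 0.548% and 18.02%. In these tiles arsenic libraries 2, 3 and 3 were the high ones. Arsenic library 3 (27.8%) and control library 5 (28.6%) were both high at Cdk17, a cyclin-dependent kinase gene (chr10:93161001-93162000). Arsenic library 5 was the highest at Sim2, a developmental transcription factor gene (chr16:94085001-94086000, 30.2% against 0.423% to 16.1% elsewhere). It was also the highest at Ptchd3, a patched-domain gene (chr11:121830001-121831000, 31.3% against 1.99% to 14.5%).

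In 4 tiles where 1 library stood high, the counts were read cytosine by cytosine, and the same count often recurred. In arsenic library 2, 7 of 16 reads were methylated at 13 of the 23 cytosines of the Papss2 tile (exact 95% interval of that share 19.8% to 70.1%). In arsenic library 3, 3 of 10 reads were methylated at 16 of the 21 cytosines of the Smarca4 tile (6.67% to 65.2%), and 6 of 19 reads at 7 of the 24 cytosines of the 2810004N23Rik tile (12.6% to 56.6%). At Pdcd2l in control library 5, 3 of 12 reads were methylated at 13 of 26 cytosines (5.49% to 57.2%). The repeated count in these stretches was 3 to 7 methylated reads, and the intervals cover counting error only. In 889 of the 6304 tiles the highest library was at least 5 points above the next.

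**Figure D5:**
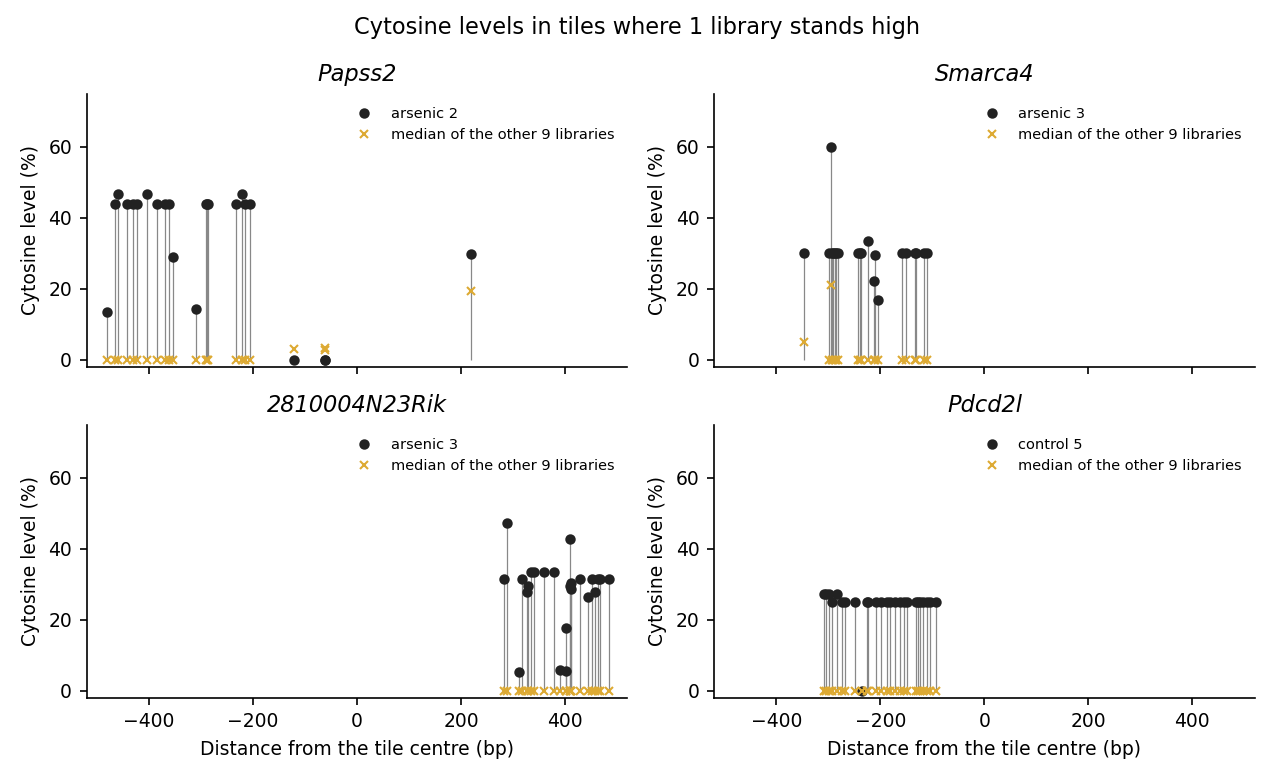
Cytosine level (%) by distance from the tile centre (bp) in 4 tiles; black points are the library named in the panel and crosses the median of the other 9 libraries. Many cytosines of the high library share 1 level (13 of 23 at Papss2, 16 of 21 at Smarca4, 13 of 26 at Pdcd2l and 7 of 24 at 2810004N23Rik) while the other libraries have a median of 0 at nearly all of them.

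The least methylated tiles in the arsenic libraries were at Pdcd2l, Lmo1, Sipa1l2, Tor1aip2 and Dusp8. Pdcd2l (chr7:34196001-34197000) was at 0 in arsenic libraries 1 to 4 and at 0.207% in library 5, beside 1.24%, 8.47%, 0.325%, 1.17% and 23.9% in the control libraries. Its control values rested on libraries 2 and 5, and its pooled difference was -5.98 points, or -2.66 without control libraries 4 and 5. Its median depth was 10 to 20 reads per cytosine, at which a count of 0 allows 15% to 30% at a single cytosine in these 4 libraries. Lmo1, the gene of a LIM-only transcriptional cofactor (chr7:109175001-109176000), was at 0% to 0.364% in the arsenic and 0% to 0.806% in the control libraries. Sipa1l2 (chr8:125569001-125570000) ranged over 0% to 0.741% and 0.465% to 1.15%. Tor1aip2, which encodes a torsin cofactor of the endoplasmic reticulum (chr1:156035001-156036000), ranged over 0% to 0.444% and 0% to 1.36%. Dusp8, a phosphatase of stress-activated kinases (chr7:142095001-142096000), ranged over 0% to 0.322% and 0% to 0.588%. Across the tiles named in the text, a level of 0 in a library allows up to 0.18% to 1.20% if every read call is taken as independent, and up to 5.26% to 30% at the tile's median cytosine.

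The densest tiles were at Lin28b, an RNA-binding repressor of let-7 processing, and at the chaperonin gene Cct7, with 95 measured CpGs each. The Lin28b tile (chr10:45486001-45487000) was at 0.877%, 7.05%, 7.49%, 5.66% and 14.7% in the control and 7.20%, 4.87%, 0.561%, 1.65% and 7.08% in the arsenic libraries, which overlapped throughout. Cct7 shares its tile with the start of Pradc1 (chr6:85451001-85452000) and ranged over 0.686% to 7.71% and 1.17% to 3.72%. Kdm7a, a histone demethylase gene (chr6:39206001-39207000, 93 CpGs), ranged over 0.301% to 1.95% and 0.367% to 1.88%, C2cd4b (chr9:67760001-67761000, 91 CpGs) over 1.51% to 5.26% and 2.81% to 4.76%, and the forkhead gene Foxd1 (chr13:98355001-98356000, 88 CpGs) over 0.226% to 4.33% and 0.421% to 2.17%. Their groups overlapped. The genes with the most tiles were the homeobox gene Nkx1-1 and the zinc finger genes Zfp503 and Zic2, with 4 each. Mean levels over their tiles were 4.32% in the control and 3.70% in the arsenic libraries for Nkx1-1, 4.60% and 2.86% for Zfp503, and 3.14% and 2.22% for Zic2. 4930524J08Rik (2.18% and 1.59%) and A930018O16Rik (2.24% and 2.29%) followed with 3 tiles each.

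Gene lists of the pathways and cell types of testis show which genes have such tiles. In each list the share of autosomal genes with at least 1 tile is set beside the 30.3% of all autosomal protein-coding genes, as a description. In some lists the tiles are fewer than the genes with a tile, as for splicing factors (16 tiles and 19 genes). A tile is named by the nearest gene alone, although it may lie at the ends of others. Of the tiles at list genes, 0 passed the adjusted threshold. The share of tiles at an unadjusted p under 0.05 is to be set beside 11.7% of the 6304 tiles and 5.80% of all tiles tested. Counts by direction are to be set beside 3678 lower and 2626 higher among the 6304 tiles. Without control libraries 4 and 5 those were 2807 lower and 3497 higher.

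Housekeeping genes had tiles at 35.7% to 76% of the genes in their 6 lists. Splicing factor genes had the highest share of the 18 lists, 19 of 25 (76%), and 3 of their 16 tiles had an unadjusted p under 0.05. The tile of Prpf8, a core protein of the spliceosome (chr11:75486001-75487000), was at 6.03%, 0.119%, 17.98%, 19.5% and 0.596% in the control and 0.213%, 1.09%, 0.146%, 1.17% and 0.213% in the arsenic libraries, so that control libraries 1, 3 and 4 were high and 2 and 5 lay with the arsenic group. The tile of Prpf19, a spliceosomal ubiquitin ligase gene, ranged over 0.641% to 11.2% and 0% to 1.45%, and that of Srsf3, a splicing regulator gene, over 0.659% to 1.88% and 0.994% to 5.75%. Ribosomal protein genes had tiles at 16 of 30 (53.3%), with medians of 1.65% and 1.52% in the control and arsenic libraries. Rpl32 was at 0.580% to 5.96% and 0.216% to 1.03%. The groups overlapped at these 4 named genes. The pooled difference at Rpl32 was -1.67 points, and -0.174 without control libraries 4 and 5.

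Genes of tRNA synthetases had tiles at 10 of 20 (50%), proteasome subunits at 10 of 28 (35.7%), respiratory chain subunits at 10 of 26 (38.5%) and DNA replication at 12 of 27 (44.4%). The arsenic level was the higher in 7 of 9 proteasome tiles and 8 of 11 respiratory chain tiles (5 and 9 without control libraries 4 and 5), and in 4 of 9 tiles each for tRNA synthetases and DNA replication (5 each without them). Of the tiles in these 4 lists, 4 had an unadjusted p under 0.05. Those were the 20S proteasome gene Psma3 (0.173% to 1.603% in the control and 0.209% to 8.06% in the arsenic libraries), its fellow Psmb3 (0.839% to 2.04% and 0.972% to 3.94%), the cytochrome c oxidase gene Cox5b (0.325% to 4.84% and 0.327% to 7.81%) and the replicative helicase gene Mcm2 (2.60% to 10.7% and 1.26% to 6.16%). Mcm2 was the lower in the arsenic group and the other 3 the higher, with overlapping libraries in each. The cysteine and glycine synthetase genes Cars and Gars ranged over 0.150% to 0.917% and 0.464% to 3.78%, and over 0% to 10.8% and 0.0616% to 4.22%.

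Developmental transcription factors, typical Polycomb targets, had tiles at 24 of 36 genes (66.7%), 34 tiles in all. The arsenic level was the lower in 23 of the 34, beside 58.3% of the 6304 tiles, with a median difference of -0.430 points beside -0.243. Without control libraries 4 and 5 it was the lower in 19 and the higher in 15, and the median difference was -0.0492. Neurog2, a neurogenic transcription factor gene (chr3:127633001-127634000), was at 1.06%, 1.07%, 2.72%, 2.96% and 4.52% in the control and 0.932%, 0.680%, 0.780%, 0.348% and 0.891% in the arsenic libraries, with no overlap. Its pooled difference was -1.73 points, and -0.952 without control libraries 4 and 5. Hoxb9 was at 5.18%, 0.472%, 5.74%, 0.828% and 4.21% against 0.552%, 2.53%, 0.359%, 0.443% and 1.26%, and its control libraries 2 and 4 lay within the arsenic range. Isl1, a LIM homeobox gene, was at 0.278%, 0.336%, 0.925%, 0.387% and 3.57% against 1.56%, 2.29%, 13.8%, 2.69% and 2.28%, where arsenic library 3 alone was above 4%.

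Germ cell genes had few such tiles. Of 35 autosomal meiosis and piRNA genes, 6 had a tile (17.1%), and 6 others had CpG-dense end tiles only at 10% or more in the controls. The tile of Tdrd5, a piRNA pathway gene, ranged over 0.631% to 6.61% in the control and 0.496% to 1.46% in the arsenic libraries, that of Tex15, a gene of retrotransposon silencing, over 2.77% to 6.28% and 2.08% to 6.16%, and that of the meiotic recombination gene Psmc3ip over 0.214% to 4.16% and 0.546% to 3.94%. Spermatid genes had tiles at 7 of 28 (25%). Among them were Crem, the gene of a transcriptional activator of spermatids (0.282% to 9.37% and 0.411% to 3.91%), the sperm calcium channel gene Catsper2 (0.269% to 4.45% and 0.195% to 1.97%) and Odf2, a gene of the outer dense fibres of the tail (0.870% to 1.84% and 0.552% to 3.78%). None of the tiles in these 2 lists had an unadjusted p under 0.05. Of 13 autosomal imprinted genes listed as maternally methylated, 2 had a tile: Grb10 (0.349% to 4.62% and 0.821% to 10.8%) and Inpp5f (0.212% to 3.35% and 0% to 2.61%). Those tiles lay at the 5′ ends of the genes, and whether they overlap the maternally methylated regions was not examined. Another 3 genes of the list had CpG-dense end tiles only at 10% or more in the controls.

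Genes of somatic testis cells were unevenly represented. Sertoli cell genes had tiles at 8 of 16 (50%), 10 tiles in all, and the arsenic level was the lower in 8, beside 58.3% of the 6304 tiles; without control libraries 4 and 5 it was the lower in 5 and the higher in 5. Sox9, the transcription factor gene that sets Sertoli cell fate (chr11:112782001-112783000), was at 6.89%, 0.751%, 8.81%, 0.589% and 3.72% against 1.62%, 1.04%, 2.99%, 0.166% and 0.608%, and only control libraries 1, 3 and 5 were above the arsenic range. Dmrt1, a sex-determining transcription factor gene, ranged over 1.404% to 9.12% and 0.804% to 5.36%, and Gdnf, the gene of a growth factor for spermatogonial stem cells, over 1.02% to 19.9% and 1.14% to 5.98%. None of 14 Leydig cell genes and none of 15 peritubular, vascular and immune genes had a tile. None of these genes had a CpG-dense end tile at 10% or more in the controls either. They thus had no measured CpG-dense end tile, and their absence says nothing of their methylation level. Of 26 genes of liver, muscle and keratin, none had a CpG-dense end tile at 10% or more in the controls. Only Ckm, the muscle creatine kinase gene, had one of the 6304 tiles, at its 3′ end (chr7:19420001-19421000). It was at 11.1%, 5.35%, 9.55%, 5.56% and 8.82% in the control and 2.64%, 3.58%, 4.79%, 4.48% and 5.34% in the arsenic libraries, and the groups did not overlap, with control library 2 just above arsenic library 5.

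Genes of the methylation machinery had tiles at 8 of 17 (47.1%). Of their 9 tiles, 7 were higher in the arsenic libraries, beside 2626 of the 6304, and 8 without control libraries 4 and 5, beside 3497. Tet3, which encodes a dioxygenase that oxidises methylcytosine (chr6:83456001-83457000), went the other way, at 4.33%, 0.994%, 7.53%, 11.8% and 0.537% against 0.463%, 3.76%, 0.218%, 0.143% and 0.138%, with control libraries 2 and 5 inside the arsenic range. Tdg, the thymine DNA glycosylase gene (chr10:82629001-82630000), was at 0.249%, 0%, 0%, 0% and 1.11% against 7.66%, 0.861%, 1.21%, 1.04% and 2.38%. Uhrf1, which recruits the maintenance methyltransferase (chr17:56304001-56305000), was at 0.0730%, 5.41%, 0.0786%, 0.873% and 0.711% against 2.54%, 6.25%, 5.04%, 0.544% and 8.34%. The groups overlapped at all 3. Genes of Polycomb and CpG island binding proteins had tiles at 14 of 24 (58.3%), of which Bap1, a histone H2A deubiquitinase gene that shares its tile with the start of Phf7, ranged over 4.68% to 12.3% and 1.70% to 6.27%, Kmt2b over 0.271% to 5.82% and 0.434% to 1.32%, and Cbx2 over 1.224% to 23.9% and 2.86% to 7.91%. The arsenic level was the lower in 10 of their 13 tiles, and in 7 without control libraries 4 and 5. The pooled difference at Cbx2 was -4.03 points, and 2.17 without these libraries.

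Oxidative stress genes, examined because arsenic is an oxidative toxicant, had tiles at 10 of 25 (40%), and genes of one-carbon and arsenic metabolism at 8 of 24 (33.3%). Gpx1 (chr9:108339001-108340000) was at 7.26%, 10.3%, 9.23%, 0.594% and 17.5% against 0%, 8.95%, 0.0593%, 2.99% and 4.43%, with control library 4 among the low libraries and arsenic library 2 among the high ones. The mitochondrial superoxide dismutase gene Sod2 ranged over 0.217% to 3.31% and 0.411% to 3.55%, and the metallothionein gene Mt1 over 4.20% to 8.62% and 3.91% to 7.36%. Ahcy, the gene of the hydrolase that clears S-adenosylhomocysteine, has its start 3 bp from the tile centre (chr2:155074001-155075000) and was at 4.59%, 7.34%, 0.936%, 6.87% and 2.78% against 1.25%, 2.24%, 1.79%, 1.44% and 2.09%. Only control library 3 was below the arsenic libraries there. The transsulfuration gene Cbs ranged over 0.149% to 1.16% and 0.258% to 2.16%, and Mat2a, the gene of an S-adenosylmethionine synthetase, over 0.299% to 0.968% and 0.236% to 1.84%. One tile in each of the 2 lists, that of Gpx1 and that of Ahcy, had an unadjusted p under 0.05.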

How the data were processed

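The 10 libraries were grouped and numbered by their titles. Per the file headers, the deposited table gives the read count, methylated count and unmethylated count at each CpG cytosine and library, raw and not normalised, in the layout that methylKit writes. The submitters' processing notes list Trim Galore 0.6.5, Bismark 0.22.3, methylKit 1.22.0 and mm10, with settings not given in the sources used here. Every cytosine had at least 10 reads in every library.

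Each strand was counted as its own cytosine and the 2 strands as 1 CpG. Counts were summed per 1000 bp tile and library, and a level is methylated reads out of all reads. Gene ends came from a RefSeq gene table on GRCm38.p6, which gives no strand, and strands and starts from the RefSeq promoter table of the same build. A tile is named by the gene whose end is nearest to its centre. Exons and introns were not analysed here.

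Tiles with at least 3 measured CpGs (165978) were fitted with a quasi-binomial logistic model with a group term and no block. The Pearson dispersion was squeezed across tiles with limma and kept at 1 or more, the group term got an F test, and p-values were Benjamini-Hochberg adjusted over all tiles. A tile was called at an adjusted p under 0.05 with no minimum difference, since a minimum of 10 points would exclude losses from a level under 10%. The model was also run on simulated data, and the outcome is not reported here. Python 3.11.15 (numpy 2.4.6, scipy 1.17.1, pandas 2.3.3) and R 4.3.3 (limma 3.58.1) were used.

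Whether libraries came from separate animals is not in the labels, so a p-value reflects only the spread among libraries, which may be technical. Reads carry no molecular identifiers, so intervals, and the limit of 3 counts given for a level of 0, cover counting error only. The tiles, the gene lists (440 symbols, 436 of them found) and the settings were chosen with earlier results of these data known. The rule for named tiles took the 8 smallest p in each direction, 5 on each side of the level limit, the 6 with the largest SD over the arsenic libraries, the 5 lowest in the arsenic libraries, the 5 with the most CpGs, the 5 genes with the most tiles, and up to 3 per list; 3 tiles that it names are not reported here. Promoters were printed for the first of these that had at least 5 measured CpGs in the tile. Alternatives were another test, coverage of at least 20 reads, 1 strand, a replicate block, other definitions of the tiles, libraries left out, and, chosen after seeing the data, 1 cytosine per tile.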

Additional observations from a re-analysis of the deposited data

Results flagged for a closer look

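In 90 groups of 5 libraries, the library at one end was compared with the rest of its group. The values were the levels of the tiles named for their p, level, spread or CpG number. The mean level, the share of the 6304 tiles at 10% or more and the median depth of each library were also used. For normally distributed values, chance alone marks about 1 in 20 such groups, and 9 were marked. That rate does not hold for tiles named for their spread or low level in the arsenic libraries (Smarca4, 2810004N23Rik, Cdk17, Pdcd2l and Dusp8). Arsenic libraries stood far above their group at Smarca4 (29.9% in library 3) and at the tile shared by 2810004N23Rik and Gnpat (27.1% in library 3). Arsenic library 1 was marked as high at Rnft1 (1.12%), and arsenic library 5 at Pdcd2l (0.207%, with the rest of its group at 0). At Dusp8, arsenic library 4 was marked as low, at 0 beside 0.253% to 0.322% in the rest of its group. The levels at Pdcd2l and Dusp8 lie near 0, where few methylated reads decide the mark. Control libraries stood far above their group at Cdk17 (28.6% in library 5), C1ql3 (15.1% in library 5) and Smarca4 (8.20% in library 3). The share of the 6304 tiles at 10% or more was 3.20% in arsenic library 5, far above the other arsenic libraries (1.63% to 1.94%).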

How the results depend on the processing

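With all libraries 0 tiles passed. A minimum difference of 10 points in the same fit can only remove tiles, so its count of 0 was fixed in advance. The count was also 0 with at least 20 reads, on the plus strand only, without control libraries 4 and 5, and with 1 cytosine per tile. It was 2 with limma on log2 ratios, neither of them among the 6304 tiles. With a binomial test on reads, which takes no account of the spread between libraries, 52390 of the 165978 tiles tested passed, 4036 of them among the 6304. Leaving out each library in turn gave 0 to 1 tiles, the 1 being Rnft1 without control library 2. With the label number as a replicate block, 0 tiles passed and the lowest adjusted p was 0.153 (quasi-binomial model). At an unadjusted p under 0.05 in that fit, 827 of the 6304 tiles were lower and 424 higher, beside 11126 of the 165978 tiles tested in either direction. Between libraries with the same number, deviations from the group mean had correlations of -0.0126 to 0.0167, and 4 of 10 libraries were closest to their own number. The labels do not say what the numbers stand for, and whether libraries with the same number share a batch was not tested.

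The number of tiles was 11600 with at least 10 CpGs, 3133 with at least 30, and 1771 when only cytosines with at least 20 reads were counted, so depth limits which tiles can be described. Under the other definitions it was 5613 to 6474, and 6277 to 6321 when a control library was left out of the pooled level. The mean difference over the tiles was -0.516 to -0.114 points when each library was left out in turn, and turned to 0.105 without control libraries 4 and 5 together. Without those libraries the pooled difference turned at Atp2a2 (-4.90 to 1.09 points), Cdk17 (-0.0262 to 5.34), Cct7 (-0.748 to 0.647), C2cd4b (0.0728 to -0.105), Gars (-1.23 to 0.874) and Cbx2. Of 1197 rechecks of the named tiles under 15 settings, 61 changed sign, in 32 of 81 results; among the 16 tiles with the smallest p, Grem1 alone did so, to -0.00488 points with 1 cytosine per tile. The cause was not tested.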
